A study of Homo sapiens with 30 samples.

Results

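OCI-Ly1, a human B-cell line from diffuse large B-cell lymphoma, was treated with JIB-04 at 150 nM or with the solvent DMSO, and H3K4me3 was measured by chromatin immunoprecipitation and sequencing (ChIP-seq). The comparison covered all 21102 consensus peaks of H3K4me3 on autosomes and chromosome X, out of 21268 H3K4me3 peaks in all and 84848 peaks in the deposited tables of H3K4me3 and H3K27ac. DMSO, 150 nM and 500 nM had 2 libraries each, numbered as replicates 1 and 2. All of them came from the same cell line, with no genetic change named in the labels and DMSO as the vehicle. The labels do not say whether replicates came from separate cultures, and the length of treatment is not given in the sources used here. P-values therefore measure only the spread between these libraries, which may be technical. The question was whether the lower dose changed H3K4me3 anywhere, and how small a change at promoters of B-cell, histone demethylase and stress genes lay outside the error. The input, H3K9me2 and H3K9me3 libraries of the series were not analysed here.

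H3K4me3 is trimethylation of lysine 4 of histone H3, a mark that sits around the start sites of active genes and spreads widest at genes that define a cell type. It is written by the SETD1 and KMT2 methyltransferase complexes and removed by the Jumonji demethylases of the KDM5 family. JIB-04 is a small molecule that inhibits Jumonji histone demethylases, enzymes that need iron and oxygen and include the KDM4 erasers of H3K9 methylation and the KDM6 erasers of H3K27 methylation. In a germinal-centre B-cell lymphoma, BCL6, PAX5 and EBF1 hold the B-cell programme, and PRDM1 drives the exit to plasma cells.

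Promoters rich in CpG dinucleotides are the usual carriers of H3K4me3. Below, the 250 bases before a listed start are given 5′ to 3′ on the gene's strand from RefSeq (GRCh38.p14), with every CG in capitals, for a B-cell, a demethylase and a stress gene with a tested H3K4me3 peak and for a T-cell gene without one.
PAX5: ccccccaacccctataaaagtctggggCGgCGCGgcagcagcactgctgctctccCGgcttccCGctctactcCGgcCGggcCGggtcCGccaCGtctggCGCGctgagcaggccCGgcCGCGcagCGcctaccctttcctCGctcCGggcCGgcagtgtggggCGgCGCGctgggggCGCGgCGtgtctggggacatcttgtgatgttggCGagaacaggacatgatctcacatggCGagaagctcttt
KDM4B: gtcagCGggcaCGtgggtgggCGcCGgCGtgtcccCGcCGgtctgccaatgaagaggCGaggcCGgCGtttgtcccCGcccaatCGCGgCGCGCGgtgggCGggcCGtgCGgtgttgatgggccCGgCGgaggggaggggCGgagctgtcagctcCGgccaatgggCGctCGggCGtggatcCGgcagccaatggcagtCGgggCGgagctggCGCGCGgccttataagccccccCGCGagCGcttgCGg
XBP1: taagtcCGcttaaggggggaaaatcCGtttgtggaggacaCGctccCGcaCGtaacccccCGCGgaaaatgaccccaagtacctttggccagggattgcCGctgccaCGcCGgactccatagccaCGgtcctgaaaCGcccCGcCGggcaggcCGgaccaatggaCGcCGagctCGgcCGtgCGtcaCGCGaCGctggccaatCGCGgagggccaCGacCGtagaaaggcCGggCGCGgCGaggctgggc
CD2: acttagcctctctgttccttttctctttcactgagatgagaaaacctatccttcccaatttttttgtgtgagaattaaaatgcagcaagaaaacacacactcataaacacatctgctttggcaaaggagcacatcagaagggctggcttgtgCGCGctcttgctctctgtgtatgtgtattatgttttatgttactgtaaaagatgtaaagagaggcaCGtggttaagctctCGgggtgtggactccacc
The PAX5 stretch (chr9:37034269-37034518, minus strand) holds 27 CG, the KDM4B stretch (chr19:4968863-4969112, plus strand) 36 and the XBP1 stretch (chr22:28800570-28800819, minus strand, the upstream of its 2 listed starts) 31. The CD2 stretch (chr1:116754180-116754429, plus strand) holds 4. Over the 34961 listed starts on autosomes and X, the median was 11 CG in such a stretch, with 21 at starts that had a tested peak and 3 at starts that had none. The 180 starts of the listed B-cell, demethylase and stress genes had a median of 21, and 95% of them had a tested peak. Starts with 0 or 1 CG had a tested peak in 5.06% of cases and starts with 20 or more in 82.0%. The median excluded change, defined below, was 1.16-fold at the former and 1.09-fold at the latter.

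The DMSO and 150 nM libraries were of like depth and differed little from each other. Total counts in H3K4me3 peaks ranged from 9686420 to 12327122 over the 6 libraries, and from 10292608 to 12327122 over the 4 of DMSO and 150 nM. How far 2 libraries differed beyond counting noise was measured by a chi-square divided by its degrees of freedom, where a value of 1 stands for counting noise alone. This ratio was 0.900 between the 150 nM libraries and 1.12 between the DMSO libraries. Setting each DMSO library against each 150 nM library gave 0.923 to 1.17, whereas DMSO against 500 nM libraries gave 7.93 to 9.30. The 150 nM libraries thus differed by less than the sampling noise, but so did DMSO replicate 1 and 150 nM replicate 1. The ratio cannot tell separate cultures from technical repeats, so it does not settle whether the 150 nM libraries are independent. They were kept as 2 samples, as labelled. With them summed to 1 sample, 0 peaks were called and the median excluded change defined below was 0.25 on the log2 scale over all tested peaks. The B-cell label was checked on promoters: 21 of 23 B-cell receptor and surface genes had a tested peak, at a median of 90.0 CPM in DMSO. By contrast, 3 of 10 T-cell and NK-cell markers had one (median 18.6 CPM), as did 1 of 10 myeloid and erythroid markers (10.7 CPM) and 3 of 6 stromal and epithelial markers (3.21 CPM). CD3E, CD2, LYZ, MPO, HBB and CDH1 were among those with none. Of the B-cell genes, HLA-DRA and CXCR5 had none, and the 21 include CIITA, whose peak lay over the start of DEXI. The strongest stromal or epithelial peak stood at 70.4 CPM, within the B-cell range of 7.40 to 435 CPM. CPM is the read count of a peak scaled by the library's reads in all tested peaks (with TMM factors), and it cannot show a change shared by all peaks.

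No H3K4me3 peak was called at 150 nM. Of the 20248 peaks with enough reads to test, 0 differed from DMSO at an adjusted p under 0.05 (edgeR quasi-likelihood test, Benjamini-Hochberg, 0% called), and the lowest adjusted p was 0.657. DESeq2 also called 0. It gave only 64 peaks at an unadjusted p under 0.05, far fewer than the 940 of edgeR, so its 0 calls add little. No limits were computed from DESeq2. At an unadjusted edgeR p under 0.05 there were 940 peaks, 4.64% of those tested, with 555 higher (2.74%) and 385 lower (1.90%). Both 150 nM libraries lay above both DMSO libraries at 3479 peaks (17.2%) and below both at 3392 (16.8%). The median log2 fold change was 0.0011, with a 5th percentile of −0.29 and a 95th percentile of 0.41. On chromosome X (620 peaks) the median was −0.022, and on the autosomes it was 0.0016. With the same DMSO libraries, 500 nM gave 7980 called peaks (39.4%), 4175 higher (20.6%) and 3805 lower (18.8%), and its 5th and 95th percentiles were −0.63 and 1.30. DESeq2 called 3443 peaks in that contrast. When scaled by the total count in tested peaks instead, the split at 500 nM was 4726 higher and 2780 lower. The direct comparison of 500 nM with 150 nM called 7937 peaks (39.2%), 4154 higher and 3783 lower, or 4658 and 2910 with the total count, and DESeq2 called 3435.

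**Figure D1:**
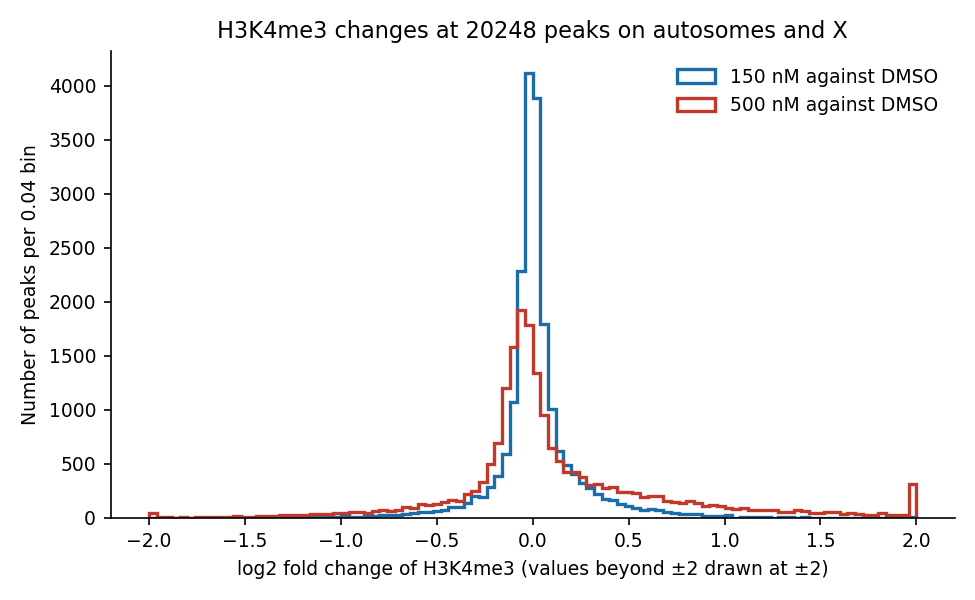
Number of tested H3K4me3 peaks on autosomes and X (vertical axis) by log2 fold change in bins of 0.04 (horizontal axis), for 150 nM (blue) and 500 nM (red) against the same DMSO libraries, with values beyond 2 in either direction drawn at the edge. The 150 nM changes form a narrow peak at 0, with its 5th and 95th percentiles at −0.29 and 0.41, whereas the 500 nM changes have long sides on both ends.

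For each peak the 95% interval of the log2 fold change was taken from the edgeR fit, and the excluded change is the end of that interval farthest from no change. A peak with an excluded change of 1.10-fold is one whose interval holds neither a rise nor a fall beyond 1.10-fold. All such limits concern a change relative to the other peaks, since counts were scaled within each library. A change shared by all peaks is not excluded at any promoter. The median excluded change over all tested peaks was 0.22 on the log2 scale, or 1.17-fold. It was within 1.1-fold at 6207 peaks (30.7%), within 1.2-fold at 10928 (54.0%), within 1.5-fold at 14546 (71.8%) and within 2-fold at 17491 (86.4%). These intervals hold for 1 peak at a time, and with a Bonferroni level over all tested peaks the median was 0.47, or 1.38-fold. The interval rests on a spread estimated from 2 libraries per group and shared across peaks.

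The reach of the data followed the read count of the peak. In 5 groups of equal size by abundance, the median counts per peak were 16.0, 65.2, 348, 792 and 1342, and the median excluded changes were 2.19, 1.45, 1.16, 1.10 and 1.07-fold. Peaks within 1000 bp of a gene start (10591 peaks, median count 768) reached a median of 1.10-fold, and 79.3% of them lay within 1.2-fold. The 9657 other peaks reached 1.48-fold. Peaks that overlapped an H3K27ac peak (16045), the acetylation mark of active promoters and enhancers, reached 1.12-fold (0.17 on the log2 scale), and the 4203 without such an overlap 0.77 on the log2 scale. The 1075 peaks of 4000 bp or more, which include those of BCL6 and PAX5, reached 1.07-fold with none above 1.29-fold. The 6383 peaks shorter than 1000 bp reached 1.88-fold.

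**Figure D2:**
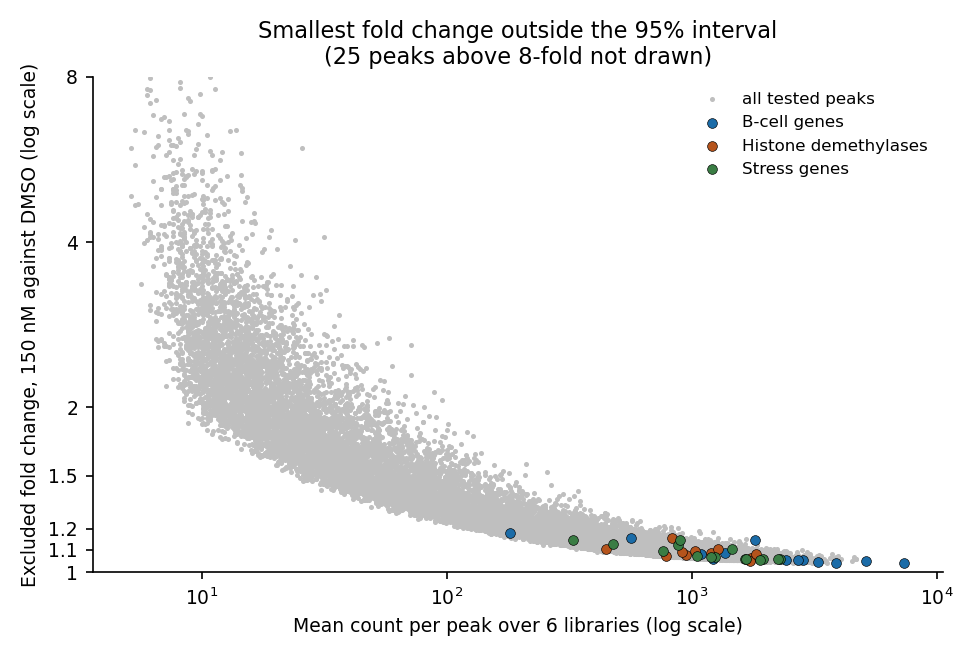
Excluded fold change at 150 nM against DMSO (vertical axis, log scale) against the mean count per peak over the 6 libraries (horizontal axis, log scale) for all tested peaks (grey) and the promoter peaks of the named B-cell (blue), demethylase (brown) and stress genes (green); 25 peaks above 8-fold are not drawn. The excluded change narrows as the count rises, and the 39 named promoters drawn lie between 1.04 and 1.18-fold.

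The weakest peaks leaned upwards at 150 nM. The median log2 fold change in the 5 abundance groups, from the lowest to the highest, was 0.078, 0.034, −0.0023, −0.0086 and −0.0020. In the lowest group the summed level of each 150 nM library lay above that of each DMSO library, by 0.028 to 0.12 on the log2 scale. The DMSO libraries themselves differed there by 0.063. That slope was not tested.

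Of the 143 listed B-cell, demethylase and stress genes, 137 had a tested promoter peak, in 136 distinct peaks since HSPD1 and HSPE1 share 1. Those without were ETS1, HLA-DRA, CXCR5, ATF3, HSPA1A and EGLN3. The median excluded change over the 136 peaks was 1.08-fold, against 1.17-fold over all tested peaks. Over all tested peaks within 1000 bp of a gene start it was 1.10-fold. Of the 136 peaks, taken 1 at a time, 95 lay within 1.1-fold, 131 within 1.2-fold and 134 within 1.5-fold. With the Bonferroni level over all tested peaks these counts were 0, 83 and 130. None was called at 150 nM, and 4 of 136 had an unadjusted edgeR p under 0.05, all higher: IRF8, KDM4B, FOS and CA9. Over all tested peaks 2.74% were higher and 1.90% lower at that p. Both 150 nM libraries lay above both DMSO libraries at 21 (15.4%) and below at 18 (13.2%), no larger shares than the 17.2% and 16.8% over all tested peaks. By list the medians were 1.06-fold for B-cell transcription factors, 1.09-fold for B-cell receptor and surface genes, 1.08-fold for histone demethylases and 1.08-fold for the 5 stress lists together. At 47 of the 137 promoters the peak also held the start of another gene, so its value belongs to both. For 26 of the 143 genes either gene end was used, and the peak counted for CIITA lay away from its start.

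**Figure D3:**
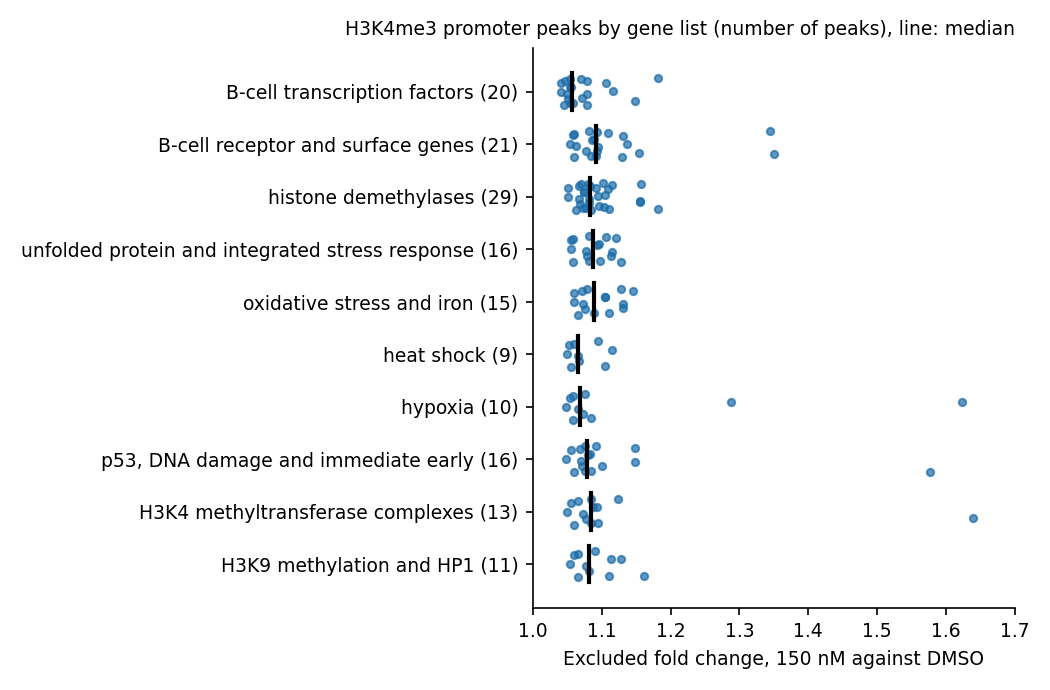
Excluded fold change at 150 nM against DMSO (horizontal axis) for every promoter peak of the B-cell, demethylase, stress, H3K4 methyltransferase and H3K9 methylation lists. Each point is 1 peak, the black line is the median and the number of peaks is in brackets. The marker lists of other cell types are not drawn. The medians lie between 1.06 and 1.09-fold, and the points beyond 1.3-fold are few.

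The promoters of B-cell transcription factors carried the narrowest limits. BCL6, the repressor that maintains the germinal-centre state, had a peak of 11694 bp (chr3:187735884-187747577). Its H3K4me3 level was 371 and 362 CPM in the DMSO libraries and 368 and 365 at 150 nM. The 150 nM values lay between the DMSO values, and the 95% interval ran from 0.962 to 1.04 times DMSO. PAX5, which commits cells to the B lineage, stood at 489.9 and 473 CPM in DMSO and 494 and 480.0 at 150 nM over its peak of 14615 bp (chr9:37023700-37038314), with an interval of 0.974 to 1.05 times. EBF1, a pioneer factor of early B cells, stood at 311 and 296 CPM in DMSO and 307 and 299 at 150 nM. Its interval was 0.957 to 1.04 times, again with the treated libraries inside the range of the controls. The oncogene MYC stood at 653 and 707 CPM in DMSO and 678 and 679 at 150 nM, with an interval of 0.961 to 1.04 times. Per length it was the highest of the named promoters, at a mean DMSO level of 95.1 CPM per kb against 31.3 for BCL6.

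The other factors gave like limits except where reads were few. IRF4, needed at the germinal-centre and plasma-cell stages, had an interval of 0.949 to 1.04 times DMSO, BACH2, which delays plasma-cell differentiation, 0.966 to 1.05, and SPIB, an ETS factor of B cells, 0.927 to 1.04. PRDM1 had 2 tested peaks near its listed starts, and the one with more reads was used. That peak (chr6:106097275-106099001) lay inside the gene, which spans chr6:105992690-106109938, and not at its outer end. It was low, at 16.5 and 15.1 CPM in DMSO and 17.1 and 14.98 at 150 nM. Its interval was 0.868 to 1.18 times DMSO, so a rise up to 1.18-fold could not be told from none. IRF8, which partners PU.1 in germinal-centre B cells, was the only named factor with an interval above no change. Its level was 154 and 148 CPM in DMSO and 165 and 166 at 150 nM (chr16:85898278-85905195), so the groups did not overlap. The log2 fold change of 0.13 had a standard error of 0.035 and an interval of 1.04 to 1.15 times (edgeR adjusted p = 0.727), which does not pass the test. Leaving out each library in turn gave log2 fold changes from 0.10 to 0.16.

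At 500 nM, with the same DMSO libraries, 14 of the 20 transcription factor promoters were called, 3 higher and 11 lower, against 20.6% higher and 18.8% lower over all tested peaks. Their peaks were broad, with a median length of 5371 bp. Of the 1075 tested peaks of 4000 bp or more, 592 were lower and 74 higher at 500 nM, so the falls are not particular to these factors. SPIB fell to 84.3 and 83.8 CPM from 105 and 111 in DMSO, a log2 fold change of −0.36 (edgeR adjusted p = 7.52e-10). BCL6 fell by 0.17 and PAX5 by 0.13 on the log2 scale, while IRF4 and IRF8 rose by 0.15 and 0.25. The fall at PAX5 was no longer called with loess offsets on abundance (−0.023), a scaling under which 5 of these promoters were higher and 5 lower. IRF8 also differed between 500 nM and 150 nM, by 0.12 (edgeR adjusted p = 0.00359). EBF1, BACH2, MYC and PRDM1 were not called at either dose, although the loess offsets called BACH2 and MYC higher at 500 nM, by 0.089 and 0.077.

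Genes of the B-cell receptor and the cell surface also lay close to DMSO at 150 nM. CD79A, a signalling chain of the receptor, stood at 116 CPM in all 4 libraries, with an interval from −0.07 to 0.08 on the log2 scale. CD79B, its partner chain, stood at 267 and 269 CPM in DMSO and 266 and 263 at 150 nM, just below both controls, and the interval was 0.949 to 1.03. MS4A1, which encodes CD20, had an interval of 0.965 to 1.08. The peak taken for CIITA, the switch of MHC class II genes, lay at the far end of that gene from its start and held the start of DEXI, so its interval of 0.978 to 1.15 does not describe the CIITA promoter. Of the 21 peaks of this list, the one taken for CIITA included, 14 were within 1.1-fold and 19 within 1.2-fold.

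At 500 nM 2 of these 21 promoters were called higher and 11 lower, beside 20.6% and 18.8% of all tested peaks. Their peaks had a median length of 3643 bp. Of the 1075 tested peaks of 4000 bp or more, 74 were higher and 592 lower. CD79B fell to 207 and 216 CPM, by 0.34 on the log2 scale (edgeR adjusted p = 2.13e-14), and CD79A to 103 and 101 CPM, by 0.18. The gap between the doses was itself called for CD79A and CD79B.

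Every one of the 29 histone demethylase genes had a tested promoter peak. Taken 1 at a time, all 29 excluded a change beyond 1.2-fold at 150 nM, with a median of 1.08-fold and a maximum of 1.18-fold (RIOX2). With the Bonferroni level over all tested peaks, 15 of the 29 did. Among the KDM5 erasers of H3K4me3, KDM5A stood at 161 and 158 CPM in DMSO and 162 and 158 at 150 nM (interval 0.954 to 1.05 times DMSO). KDM5B stood at 39.8 and 38.0 CPM in DMSO and 41.8 and 35.8 at 150 nM, where the treated libraries spread beyond the controls on both sides, with an interval of 0.907 to 1.10. KDM5C, on chromosome X, had an interval of 0.962 to 1.09. Among the KDM4 erasers of H3K9 methylation, KDM4A had an interval of 0.912 to 1.03 and KDM4C of 0.941 to 1.04.

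KDM4B was the only demethylase promoter with an unadjusted edgeR p under 0.05 at 150 nM. Its peak (chr19:4968053-4971822), which covers the CG-rich stretch printed above, stood at 86.5 and 85.6 CPM in DMSO and 94.5 and 92.6 at 150 nM. Both treated libraries lay above both controls. The log2 fold change of 0.12 had a standard error of 0.044 and an interval of 1.02 to 1.16 times DMSO, and with the adjustment over all peaks it did not pass (edgeR adjusted p = 1). Leaving out each library in turn gave 0.11 to 0.13. At 500 nM the same peak stood at 48.6 and 44.7 CPM, a log2 fold change of −0.88 against DMSO (edgeR adjusted p = 2.77e-21) and of −0.998 against 150 nM (edgeR adjusted p = 4.19e-24). The 150 nM estimate and the 500 nM fall thus had opposite signs.

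The remaining named demethylases had narrow intervals around no change. They were 0.922 to 1.03 times DMSO for KDM1A, the flavin-dependent eraser of H3K4 mono- and dimethylation that is not a Jumonji enzyme, 0.929 to 1.05 for KDM2B, which binds unmethylated CpG islands, and 0.938 to 1.07 for KDM3A, an eraser of H3K9 methylation that hypoxia induces. KDM6A, an eraser of H3K27 methylation on chromosome X, stood at 124 and 123 CPM in DMSO and 117 and 119 at 150 nM. Both treated libraries lay below both controls, and the interval, 0.905 to 1.01, still included no change. KDM6B, its relative, had an interval of 0.924 to 1.01. At 500 nM 3 of the 29 demethylase promoters were called higher and 11 lower (20.6% and 18.8% over all tested peaks), or 4 and 7 with total-count scaling and 2 and 6 with loess offsets on abundance. KDM6B fell from 180.0 and 188 CPM in DMSO to 142 and 135 (log2 fold change −0.41, edgeR adjusted p = 1.62e-14), and KDM3A and KDM6A each fell by 0.22 on the log2 scale. KDM5B rose by 0.18 and KDM2B and KDM5C fell by 0.14 and 0.16, and none of these 3 calls held with loess offsets on abundance.

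**Figure D4:**
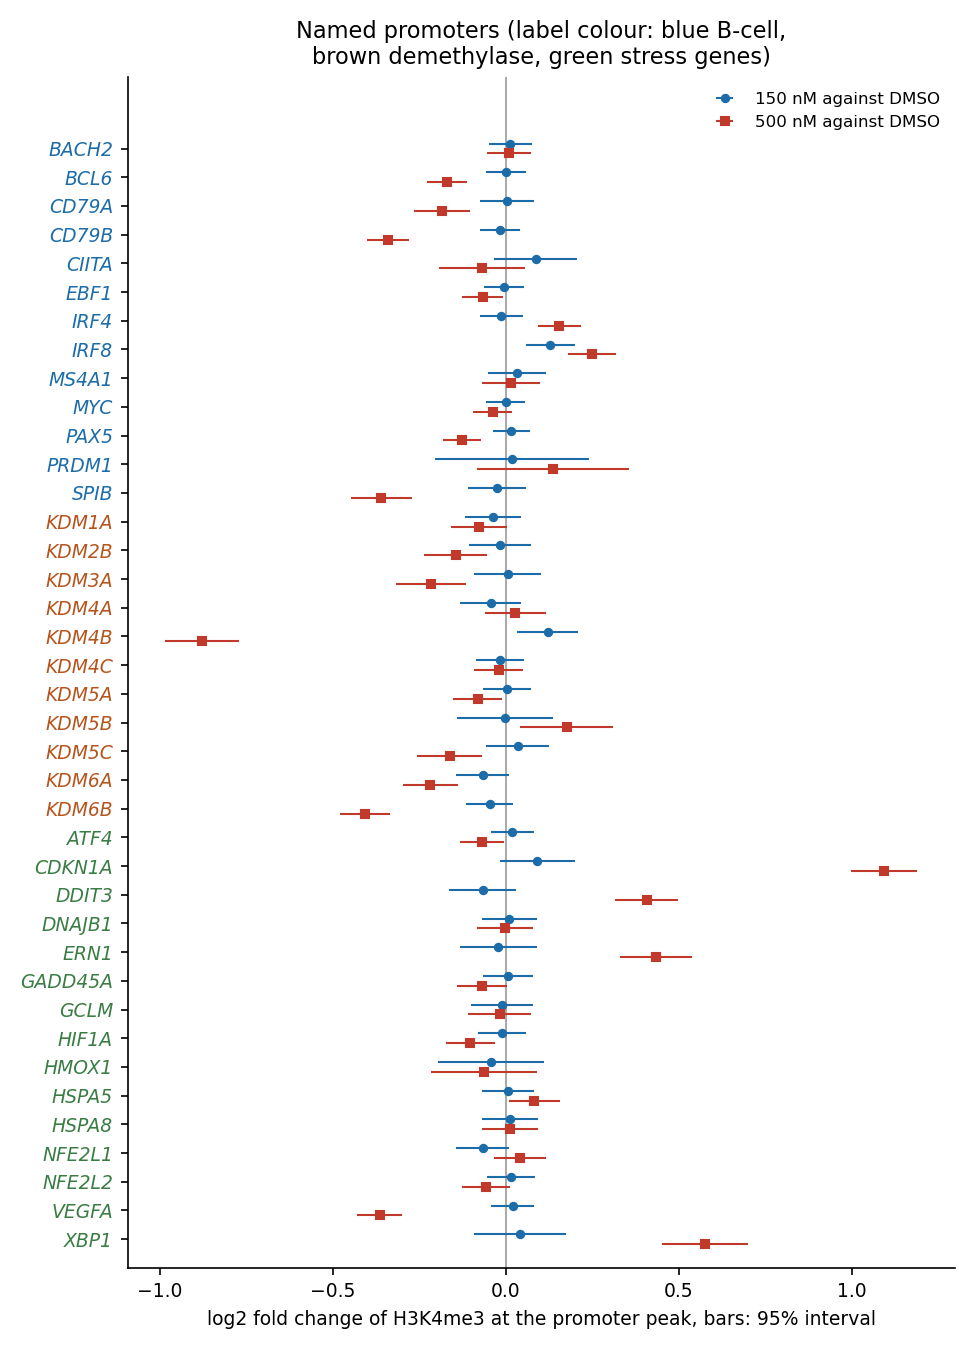
Log2 fold change of H3K4me3 (horizontal axis) at the promoter peaks of 39 named genes, with 95% intervals, at 150 nM (blue circles) and 500 nM (red squares) against the same DMSO libraries; gene labels are blue for B-cell, brown for demethylase and green for stress genes, and the CIITA entry is the peak over DEXI. Only IRF8 and KDM4B have a 150 nM interval that leaves out 0, whereas KDM4B, CDKN1A, XBP1, ERN1, DDIT3 and KDM6B lie far from 0 at 500 nM.

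Genes of the unfolded protein and integrated stress responses lay at their DMSO levels at 150 nM within narrow limits. The unfolded protein response senses misfolded protein in the endoplasmic reticulum through ERN1, whose splicing of XBP1 yields an active factor, and through PERK, which acts via ATF4 and DDIT3. Taken 1 at a time, all 16 promoters of this list with a peak excluded a change beyond 1.2-fold at 150 nM, 11 of them beyond 1.1-fold. With the Bonferroni level, 8 of the 16 excluded a change beyond 1.2-fold. Of the 16, 0 had an unadjusted edgeR p under 0.05. XBP1 stood at 37.9 and 36.3 CPM in DMSO and 37.0 and 39.6 at 150 nM, with an interval of 0.938 to 1.13 times DMSO. ERN1 stood at 59.1 and 66.3 CPM in DMSO, with both 150 nM libraries, 62.5 and 60.4, inside that range and an interval of 0.913 to 1.06. DDIT3, the factor CHOP, stood at 74.1 and 72.1 CPM in DMSO and 69.7 and 70.1 at 150 nM. Both treated libraries lay lower there, and the interval was 0.892 to 1.02. HSPA5, the chaperone BiP, had an interval of 0.954 to 1.06 and ATF4 of 0.970 to 1.06.

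In the 500 nM libraries 9 of these 16 promoters were called higher than DMSO and 0 lower, where 20.6% of all tested peaks were higher and 18.8% lower. XBP1 stood at 55.4 CPM in both libraries (log2 fold change 0.58, edgeR adjusted p = 1.25e-11), ERN1 at 81.6 and 87.5 (0.43) and DDIT3 at 95.6 and 98.9 (0.41). Each also differed between 500 nM and 150 nM, by 0.53, 0.46 and 0.47. At DDIT3 the 150 nM libraries lay below both controls and the 500 nM libraries above them. ATF4 was not called against DMSO, and HSPA5 only with the total-count and loess scalings (0.12 and 0.15).

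Oxidative stress, iron and heat shock genes showed no called change at 150 nM. All 15 oxidative stress and iron promoters excluded a change beyond 1.2-fold at 150 nM when taken 1 at a time, and 8 with the Bonferroni level. NFE2L2, the factor NRF2, stood at 176 and 186 CPM in DMSO and 181 and 183 at 150 nM, with an interval of 0.963 to 1.06 times DMSO. Its target GCLM, a subunit of glutathione synthesis, had an interval of 0.933 to 1.06, and HMOX1, which breaks down haem, 0.874 to 1.08 on a weaker peak of 29.9 and 31.6 CPM in DMSO and 30.7 and 28.8 at 150 nM. NFE2L1, which drives proteasome genes, stood at 132 and 136 CPM in DMSO and 129 and 126 at 150 nM. Its interval, 0.906 to 1.01, included no change although the groups did not overlap. Of the 9 heat shock peaks, all excluded a change beyond 1.2-fold when taken 1 at a time, and 6 with the Bonferroni level. HSPA8 and DNAJB1, constitutive and inducible members of the chaperone system, both had an interval of 0.953 to 1.07. At 500 nM 1 oxidative stress and iron promoter and 2 heat shock promoters were called higher and 0 of either list lower, against 20.6% and 18.8% over all tested peaks. With total-count scaling 2 and 3 were higher, and with loess offsets on abundance 5 and 3.

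Limits at hypoxia promoters ran from 1.05 to 1.62-fold and at p53, DNA damage and immediate early promoters from 1.05 to 1.58-fold. HIF1A, the oxygen-regulated factor, stood at 155 and 157 CPM in DMSO and 155 and 154 at 150 nM (interval 0.945 to 1.04 times DMSO). VEGFA, its angiogenic target, stood at 219 and 221 CPM in DMSO and 227 and 219 at 150 nM (0.971 to 1.06), and fell to 168 and 174 at 500 nM, by 0.37 on the log2 scale (edgeR adjusted p = 3.29e-14). Of the 10 hypoxia promoters 9 were called lower and 1 higher at 500 nM (18.8% and 20.6% over all tested peaks). Their peaks had a median length of 4351 bp, and of the 1075 tested peaks of 4000 bp or more 592 were lower and 74 higher at 500 nM. At 150 nM 8 of the 10 excluded a change beyond 1.1-fold when taken 1 at a time. The fall of HIF1A at 500 nM (−0.10) was lost with total-count scaling (−0.068). CDKN1A, the p53 target that encodes the cell-cycle inhibitor p21, stood at 58.5 and 59.0 CPM in DMSO and 65.5 and 59.5 at 150 nM. Both 150 nM libraries lay above both controls, 1 of them by little, and the interval was 0.988 to 1.15. At 500 nM CDKN1A stood at 124 and 127 CPM, a log2 fold change of 1.09 against DMSO (edgeR adjusted p = 4.75e-28) and 1.00 against 150 nM. GADD45A, a growth arrest gene, had an interval of 0.956 to 1.06 and was called at neither dose.

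**Figure D5:**
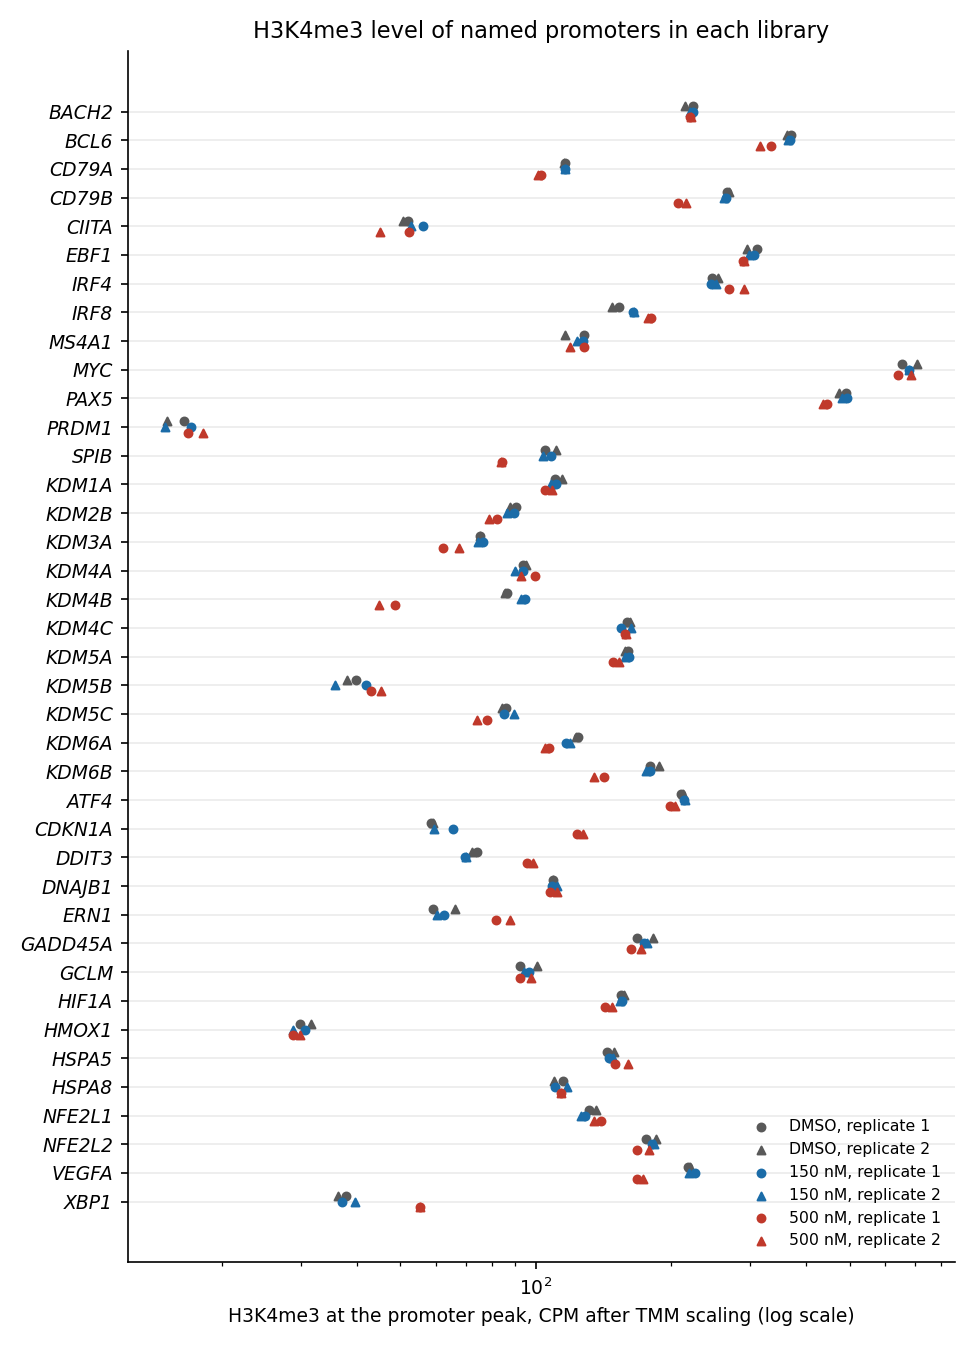
H3K4me3 level at the promoter peaks of 39 named genes (CPM after TMM scaling, horizontal axis, log scale) in each of the 6 libraries; grey is DMSO, blue 150 nM and red 500 nM, circles are replicate 1 and triangles replicate 2. Blue points lie on or beside the grey ones at nearly every gene, as at CD79A with 116 CPM in all 4 libraries, while the red points of CDKN1A (124 and 127 CPM) and KDM4B (48.6 and 44.7) stand apart.

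Among the stress and B-cell genes outside the named ones, 4 were picked after their values were seen, as those with a low p or a wide limit. FOS, an immediate early factor, stood at 13.6 and 11.5 CPM in DMSO and 17.1 and 16.8 at 150 nM, and at 27.7 and 29.4 at 500 nM. The 150 nM libraries lay above both controls and below both 500 nM libraries. On the log2 scale FOS at 150 nM differed by 0.43 (standard error 0.11), the interval was 1.15 to 1.58 times DMSO, and it did not pass the test (edgeR adjusted p = 0.727). Without DMSO replicate 2 the log2 fold change was 0.32, and without DMSO replicate 1 it was 0.56. CA9, a carbonic anhydrase of the hypoxia response, stood at 28.8 and 28.3 CPM in DMSO and 36.0 and 29.6 at 150 nM (log2 fold change 0.20, interval 1.03 to 1.29 times). The value rested on replicate 1, and without it the log2 fold change was 0.050. At 500 nM CA9 stood at 11.5 and 10.4 CPM. NDRG1 and CR2 had few reads, with intervals of 0.616 to 1.05 and 0.862 to 1.35 times DMSO at 150 nM, both of which included no change. NDRG1 stood at 6.04 and 5.99 CPM in DMSO and 5.29 and 4.37 at 150 nM, below both controls. CR2 stood at 6.94 and 7.86 CPM in DMSO and 7.88 and 8.00 at 150 nM, above both. At 500 nM NDRG1 and CR2 were both called higher, by 1.66 and 1.22 on the log2 scale.

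The enzymes that write H3K4me3 and the H3K9 methylation machinery gave like limits at the peaks taken for their promoters. For 4 of the 13 genes of H3K4 methyltransferase complexes either gene end was used. The peak taken for DPY30 lay at the end away from its start, so it does not describe that promoter. Of 13 genes of H3K4 methyltransferase complexes the median excluded change was 1.08-fold, with SETD1B, on a peak of 2.58 CPM on average in DMSO, the loosest at 1.64-fold. The 11 genes of H3K9 methylation and HP1 had a maximum of 1.16-fold (SETDB1). EHMT1, an H3K9 methyltransferase, was the only promoter of these lists with an unadjusted edgeR p under 0.05, at a log2 fold change of 0.079.

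The peaks with the lowest unadjusted p in each direction were read as a description, since none was called. They were taken among peaks of more than median abundance whose 150 nM libraries both lay beyond both DMSO libraries. The higher ones lay over the start of CHLSN (chr7:1022839-1030809, log2 fold change 0.13), at IRF8, and over the start of ZMYND8 (chr20:47350561-47358112, 0.16), which encodes a chromatin reader. The CHLSN peak stood at 185 and 182 CPM in DMSO and 212 and 189.7 at 150 nM, then at 72.3 and 66.8 at 500 nM. The lower ones lay in LOC102724877 (chr3:194099246-194102039, −0.30), outside annotated genes on X (chrX:120751862-120756707, −0.20), and over the start of LEKR1 (chr3:156825520-156827909, −0.15). The LOC102724877 peak stood at 42.8 and 39.6 CPM in DMSO and 34.8 and 32.6 at 150 nM, and at 20.6 in both 500 nM libraries (edgeR adjusted p = 0.657 at 150 nM). The X peak stood at 68.2 and 61.3 CPM in DMSO and 58.9 and 54.1 at 150 nM.

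H3K27ac gave much wider limits at the same promoters, from its own libraries of the same groups. Of the 143 listed genes 135 had a tested H3K27ac peak, in 134 distinct peaks, and the median excluded change at 150 nM was 1.30-fold, with 28 within 1.2-fold and 110 within 1.5-fold. Over all 53753 tested H3K27ac peaks 1 was called at 150 nM (0.00186%). At the listed promoters 4 were higher and 5 lower at an unadjusted edgeR p under 0.05, against 3.90% of all tested H3K27ac peaks. At IRF8 H3K27ac stood at 8.74 and 11.2 CPM in DMSO and 14.2 and 13.4 at 150 nM, an interval of 1.01 to 1.86 times DMSO, with an edgeR adjusted p of 1. The IRF8 peak was the weakest in DMSO of the 20 H3K27ac peaks of B-cell transcription factors, whose median was 115 CPM, and its limit was the loosest. At KDM4B H3K27ac stood at 37.7 and 47.7 CPM in DMSO and 29.1 and 39.0 at 150 nM, so the groups overlapped, and the estimate (−0.33) had the opposite sign to that of H3K4me3. The H3K27ac libraries of 150 nM differed between themselves by a chi-square of 2.72 per degree of freedom, against 1.24 for DMSO and 1.17 for 500 nM.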

How the data were processed

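Groups and doses came from the sample titles. The authors deposited read counts per consensus peak, not normalized, made per the file headers with featureCounts 2.0.1 without regard to strand, with reads counted in every peak that held a fraction of 0.2 of them. The headers record an option for paired reads while the labels give single reads, so whether reads or fragments were counted is unsettled. Per the submitters' processing notes, the build was GRCh38 and the tools were Trim Galore 0.6.7, BWA 0.7.17-r1188, Picard 2.27.4, MACS2 2.2.7.1, deepTools 3.5.1 and edgeR 3.42.4. How the consensus was made is not given in the sources used here. Starts were printed with 1 added, since the lowest deposited start is 0.

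All 6 H3K4me3 libraries entered one fit in edgeR 4.0.16 (R 4.3.3; filterByExpr and group as factor, TMM, glmQLFit, glmQLFTest, Benjamini-Hochberg at 0.05). Intervals are the unshrunk log2 fold change plus or minus the t quantile times its standard error. The edgeR step was tested on simulated data. A promoter peak is the tested peak with most reads within 1000 bp of a RefSeq start, or, for 44 of 193 listed genes with no start in the table, of either gene end. Exon, intron and untranslated region were not analysed here. Across the 10201 peaks of more than median abundance, deviations of same-numbered replicates from their group means correlated at 0.13 between DMSO and 150 nM. They correlated at 0.30 between DMSO and 500 nM and at 0.12 between 150 nM and 500 nM. The labels do not say whether same-numbered libraries were made together, and these weak correlations do not settle it. The main fit did not pair them, and a fit with a replicate block is given below. The naming rule took 41 genes from the lists whatever their values, of which 2 are not reported here, and the 3 abundant peaks per direction with the lowest p. The members, gene lists and named genes were chosen with earlier results of these data known. Figures were drawn with matplotlib 3.10.9. No molecular identifiers are named in the labels, so counts may exceed the number of independent molecules.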

Additional observations from a re-analysis of the deposited data

How the results depend on the processing

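The count of 0 called peaks at 150 nM stood under each other scaling and filter and with the 4 libraries of the contrast alone. DESeq2 called 0 too, but it gave far fewer low unadjusted p-values than edgeR, so that adds little. The count also stood with the replicate block (0 called, 1047 at an unadjusted edgeR p under 0.05). The block moved no count of calls by over 1.5 times. Leaving out each library gave 0 to 2 calls. Without DMSO replicate 1 the calls were chr22:46769143-46771564 in TBC1D22A (log2 fold change 0.47, edgeR adjusted p = 0.00865) and chr16:88968469-88978451 in CBFA2T3 (0.26, edgeR adjusted p = 0.0129), and without 500 nM replicate 1 the TBC1D22A peak alone (0.34, edgeR adjusted p = 0.0406). Their adjusted p with all libraries was 0.657 and 0.731. With Bonferroni intervals, wider by construction, the median excluded change on the log2 scale was 0.47 over all tested peaks, 0.24 at B-cell, 0.26 at demethylase and 0.24 at stress promoters, and 0.86 for H3K27ac at listed promoters. The stress median ranged from 0.11 to 0.15 when each library was left out, with the highest value without 150 nM replicate 1. Leaving out a DMSO or 150 nM library moved 5 to 19 of the 41 named limits by more than their standard error. For the 500 nM libraries against DMSO and against 150 nM, DESeq2 called 3443 and 3435 peaks and the replicate block 8219 and 8142.

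Depth limits the weakest peaks, whose excluded change exceeded 2-fold at the median in the lowest abundance group. With 2 libraries a group, each limit rests on the spread shared across peaks. Each also holds only relative to the other peaks and does not exclude a change shared by all.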
